A study of Mus musculus with 28 samples.

Results

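The transcription factor gene Klf15 and 9 genes of branched-chain amino acid breakdown were followed in ventricular myocardium of 28 male C57BL/6 mice. Members were found by gene name in the deposited count table, where each of the 10 names has 1 row among 45513 gene rows. All 10 passed the filter on low counts and were tested with 24273 genes. Each mouse gave 1 RNA sequencing library, and replicate numbers follow the record order inside each group.

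Surgery and gavage define 4 groups. The sham-vehicle group (10 mice) had a sham operation and received bacterial culture medium alone. CKD-vehicle mice (6) had 5/6 nephrectomy, the removal of most kidney tissue to model chronic kidney disease (CKD), and the same medium. Sham-Oxf mice (5) had the sham operation and 1 oral dose of Oxalobacter formigenes (Oxf), a gut bacterium that degrades oxalate. CKD-Oxf mice (7) had the nephrectomy and the Oxf dose. Every group ate a diet with 1% hydroxyproline, a precursor of oxalate, and 0.5% calcium. Surgery was at 6 weeks of age and gavage on day 7. Age at collection is given only as adult. The design text plans 10 mice per group, and the other mice were not analysed here, so any selection among them limits each comparison. The time of day of collection is not given in the sources used here.

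Leucine, isoleucine and valine are the branched-chain amino acids. In mitochondria, Bcat2 removes their amino group, and the branched-chain ketoacid dehydrogenase complex then commits the ketoacids to oxidation. Bckdha and Bckdhb encode the decarboxylase subunits of that complex, Dbt its transacylase core, and Dld the dihydrolipoamide dehydrogenase that it shares with the pyruvate and 2-oxoglutarate complexes. Bckdk encodes the kinase that switches the complex off, and Ppm1k the phosphatase that switches it on. Downstream, Ivd oxidises the leucine product and Acadsb the isoleucine product. Klf15 is a zinc-finger factor known in heart and muscle for daily oscillation, for induction by glucocorticoids and for control of genes of this pathway.

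Klf15 lies at chr6:90462576-90475238 on the plus strand of GRCm38, by GENCODE M21. Dld lies at chr12:31331277-31351453 on the minus strand and Acadsb at chr7:131410601-131448944 on the plus strand. The 250 bases before the RefSeq start of these 3 genes are shown because Klf15 was the member that varied with clock genes and Dld and Acadsb were the members lower with Oxf. Sequences are from RefSeq, build GRCm38.p6, at chr6:90462326-90462575 (plus), chr12:31351472-31351721 (minus) and chr7:131410351-131410600 (plus). They are written along the gene's strand, and capitals mark a match to a searched motif.
Klf15: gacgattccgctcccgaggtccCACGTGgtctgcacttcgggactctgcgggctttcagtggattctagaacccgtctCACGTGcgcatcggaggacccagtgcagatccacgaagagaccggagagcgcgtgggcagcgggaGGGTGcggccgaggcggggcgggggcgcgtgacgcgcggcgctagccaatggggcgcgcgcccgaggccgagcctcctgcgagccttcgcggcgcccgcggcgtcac
Dld: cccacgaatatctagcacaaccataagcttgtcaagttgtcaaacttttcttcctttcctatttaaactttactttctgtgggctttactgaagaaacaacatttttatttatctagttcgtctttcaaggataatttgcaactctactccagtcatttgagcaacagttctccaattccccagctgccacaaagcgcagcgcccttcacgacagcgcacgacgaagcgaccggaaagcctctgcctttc
Acadsb: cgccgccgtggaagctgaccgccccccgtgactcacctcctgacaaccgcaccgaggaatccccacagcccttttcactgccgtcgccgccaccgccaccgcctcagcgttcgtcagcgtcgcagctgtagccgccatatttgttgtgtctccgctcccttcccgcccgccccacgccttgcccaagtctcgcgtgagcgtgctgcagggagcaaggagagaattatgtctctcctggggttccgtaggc
The Klf15 window holds the E-box CACGTG, the sequence bound by CLOCK and BMAL1, at 228 and at 172 bases before the start. It also holds GGGTG, the reverse strand of the CACCC box bound by Krüppel-like factors, at 107 bases. An E-box was present in 6.02% of 32851 mouse windows of the same length, and 0.429% held 2 or more. The Klf15 window is 72% G and C, and these shares were not matched for base content.

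Of the 10 members, 9 had a window (Dbt had none), and Klf15 alone among them held an E-box. For comparison, Ciart, Per1 and Tef were the 3 of 8 clock output genes with a window that held one. CACCC, read on both strands, was found for 5 members (Klf15, Bcat2, Bckdhb, Bckdk and Ivd) and in 52.0% of all windows. The D-boxes TTATGTAA and TTACGTAA and the half-site GGGTCA were found for 0 members, against 0.819%, 0.113% and 11.7% of all windows. A match describes letters in the window and not binding.

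Library depth was 19798965 to 65378162 counts (median 38107502). Sham-Oxf replicate 1 stood apart, with a count at 15879 genes against 27128 to 33995 in the other 27 libraries. All 8 ventricular cardiomyocyte markers had counts in every library, with a summed level of 17007 to 44553 CPM (counts per 1000000, with TMM scaling factors). Adipocyte markers summed to 0.0474 to 442 CPM, hepatocyte markers to 2.53 to 164 CPM, skeletal muscle markers to 1.78 to 565 CPM and kidney tubule markers to 0 to 4.11 CPM. Between 1.83% and 20.98% of counts fell on 7SL, the non-coding RNA of the particle that directs secretory proteins to the endoplasmic reticulum. Its copies Rn7s1 and Rn7s2 had almost the same count in every library (ratio 0.9999 to 1.00002), so reads may have been counted at both, and the share is used only as a relative measure.

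Per kilobase of exon, Ivd and Dld were the highest of the 10 genes, with mean levels of 16.7 ± 2.93 and 16.5 ± 8.49 RPKM (SD, n = 28). Klf15 followed at 12.4 ± 3.36 RPKM, then Ppm1k at 10.9, Bckdha at 7.995, Bcat2 at 7.32, Bckdhb at 6.56, Acadsb at 6.33, Bckdk at 5.64 and Dbt at 4.36 RPKM. Neighbours in this order differ by less than the larger of their SDs. The genes varied unequally between mice. Dld spanned 5.43-fold from its lowest to its highest mouse, and Bckdhb only 1.62-fold. The within-group SD of Dld was 0.56 on the log2 scale, above that of 93.3% of 5701 genes of similar level (4 to 8 log2 CPM). For Klf15 it was 0.38, above 74.3% of them. Counts per library ranged from 688 to 2288 for Klf15 and from 191 to 695 for Bckdhb, the member with the lowest counts.

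**Figure D1:**
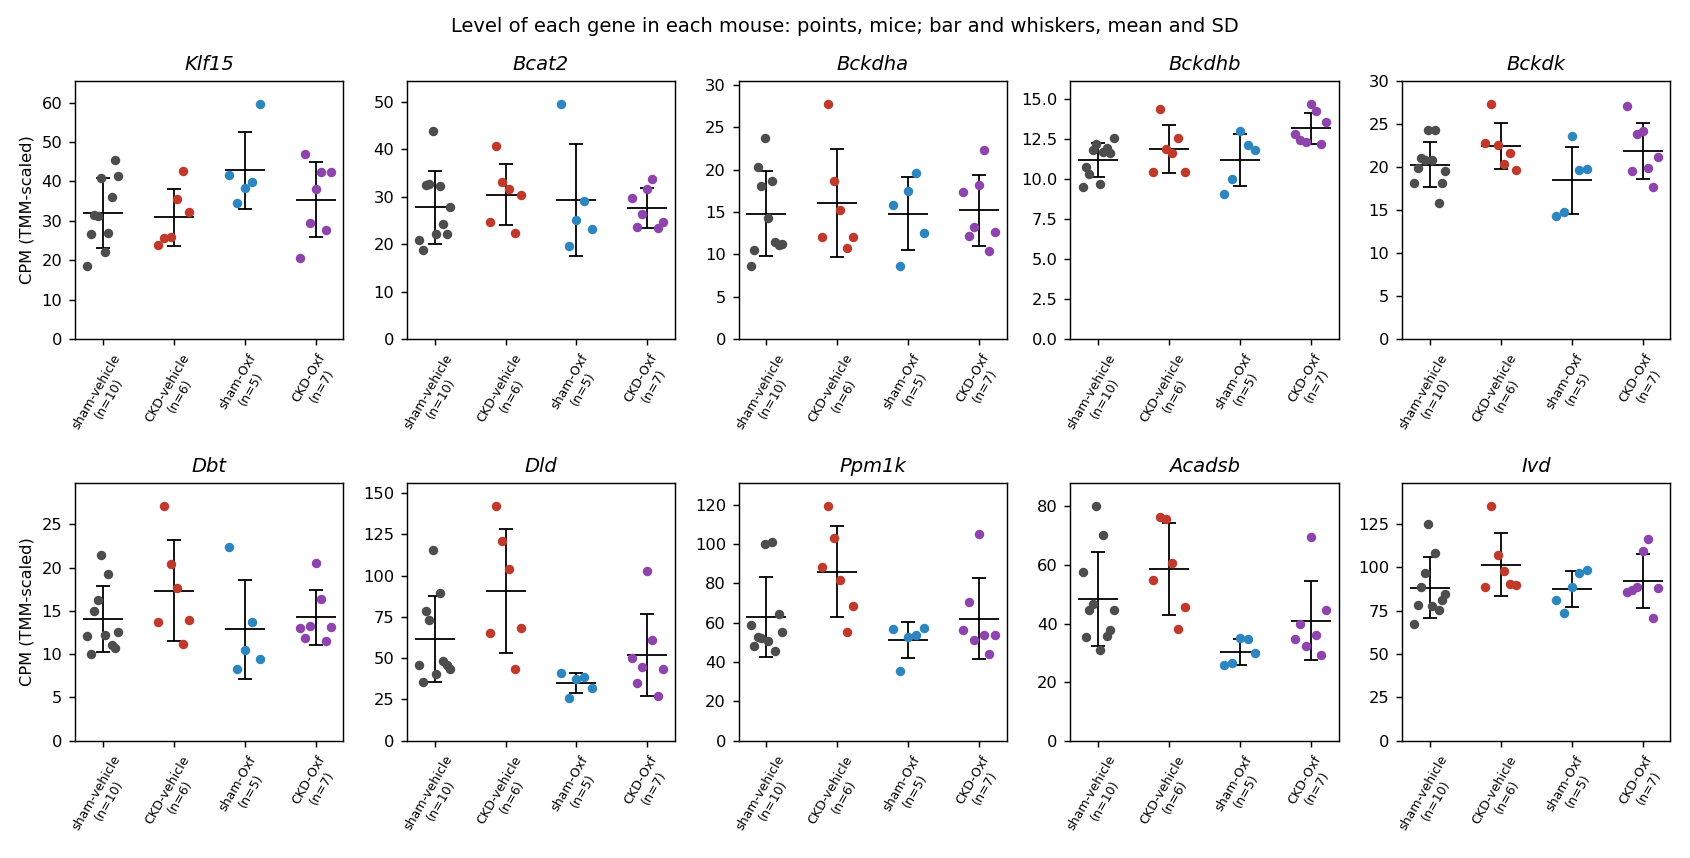
CPM (y axis, from 0) of each gene in each mouse, by group (x axis), with mean and SD as bar and whiskers. By group mean, Dld and Acadsb sit lowest in sham-Oxf and Klf15 sits highest there.

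Klf15 was at 18.5, 31.3 and 45.4 CPM (lowest, median, highest) in sham-vehicle and at 24.0, 29.0 and 42.6 CPM in CKD-vehicle. The 5 sham-Oxf mice were at 41.6, 34.6, 38.2, 40.0 and 59.5 CPM, and CKD-Oxf mice at 20.6, 38.1 and 46.9 CPM. All 5 sham-Oxf mice lay above the sham-vehicle median, but only 1 lay above its highest mouse, and the 4 groups overlapped. Group means ran from sham-Oxf (42.8 ± 9.71 CPM, SD) through CKD-Oxf (35.3 ± 9.54) and sham-vehicle (32.0 ± 8.82) to CKD-vehicle (30.9 ± 7.24). Neighbours in that order differ by less than their SD.

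No group comparison called Klf15. CKD-vehicle differed from sham-vehicle by -0.05 ± 0.19 log2 (SE, edgeR adjusted p = 0.980), and CKD-Oxf from CKD-vehicle by 0.19 ± 0.20 (adjusted p = 0.705). These comparisons share the CKD-vehicle mice. Sham-Oxf exceeded sham-vehicle by 0.42 ± 0.20 (edgeR adjusted p = 0.371, unadjusted p = 0.0408), and CKD-Oxf differed from sham-Oxf by -0.28 ± 0.21 (adjusted p = 0.818). Averaged over surgery, Oxf against vehicle gave 0.30 ± 0.14 (edgeR adjusted p = 0.191), and the interaction of surgery and gavage gave -0.23 ± 0.28 (adjusted p = 1). The Oxf average of Klf15 passed with limma voom (0.38, adjusted p = 0.0452), which called 22% of all genes there.

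Bcat2, the first step, had group means of 27.6 to 30.4 CPM, with no difference called. Its highest value of any mouse, 49.4 CPM, was in sham-Oxf replicate 1, the library that stood apart. Bckdha had means of 14.8 to 16.1 CPM. It shares 1171 exonic bases with B3gnt8 on the opposite strand, and Bcat2 shares 622 with 0610005C13Rik. Strand use in counting is not given in the sources used here, so reads of these pairs may not be separated. Dbt had means of 12.9 to 17.3 CPM and Ivd of 87.8 to 102 CPM.

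The decarboxylase subunit gene Bckdhb was the steadiest member. Sham-vehicle mice were at 9.53, 11.6 and 12.6 CPM, CKD-vehicle at 10.4, 11.8 and 14.4 CPM, and CKD-Oxf at 12.2, 12.8 and 14.7 CPM. Sham-Oxf mice were at 9.05, 10.01, 13.01, 12.2 and 11.8 CPM. All 7 CKD-Oxf mice lay above the median of sham-Oxf and of CKD-vehicle, yet the ranges overlapped. CKD-Oxf against sham-Oxf gave 0.23 ± 0.11 log2 (edgeR adjusted p = 0.585), which did not pass. The kinase gene Bckdk had means of 18.5 to 22.4 CPM and was called in no comparison.

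Dld was at 35.6, 47.3 and 116 CPM (lowest, median, highest) in sham-vehicle and at 43.3, 86.1 and 142 CPM in CKD-vehicle. Sham-Oxf mice were at 41.2, 26.1, 37.4, 38.3 and 32.1 CPM, and CKD-Oxf mice at 26.8, 44.7 and 103 CPM. All 5 sham-Oxf mice lay below the sham-vehicle median, and 6 of 7 CKD-Oxf mice below the CKD-vehicle median. Acadsb was at 31.1, 44.6 and 80.1 CPM in sham-vehicle and at 38.2, 57.7 and 76.4 CPM in CKD-vehicle. Sham-Oxf mice were at 25.8, 26.6, 35.0, 34.8 and 29.8 CPM, and CKD-Oxf mice at 29.4, 36.1 and 69.5 CPM. The same counts of mice, 5 of 5 and 6 of 7, lay below the matching vehicle median, and for both genes each Oxf group overlapped its matching vehicle group. Across both surgery and gavage, every sham-Oxf mouse lay below every CKD-vehicle mouse for Dld (41.2 CPM at most against 43.3 at least) and for Acadsb (35.0 against 38.2), as for 1.42% of all genes. No test was run on that pair of groups.

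Averaged over surgery, Oxf against vehicle called 2 of the 10 members, both lower, while 2.81% of all genes were called (1.54% lower). The log2 fold change was -0.81 ± 0.21 for Dld (SE, edgeR adjusted p = 0.0395) and -0.59 ± 0.15 for Acadsb (adjusted p = 0.0380). Both calls lay close to the threshold. They were lost when any of 14 libraries was left out (sham-vehicle replicates 4 and 7; CKD-vehicle 1 to 4; sham-Oxf 2, 4 and 5; CKD-Oxf 1, 2, 3, 5 and 6), where the adjusted p was at most 0.0829. Without sham-Oxf replicate 1 the values were -0.84 and -0.57, and both passed. Without CKD-Oxf replicate 4, whose Dld (103 CPM) and Acadsb (69.5 CPM) were the highest of its group, the phosphatase gene Ppm1k was called as well, in a fit that called 3362 genes, 13.9% of those tested, against 681 with all libraries.

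The phosphatase gene Ppm1k was at 45.7, 54.1 and 101 CPM in sham-vehicle, at 55.3, 84.9 and 119 CPM in CKD-vehicle and at 44.3, 53.8 and 105 CPM in CKD-Oxf. Sham-Oxf mice were at 56.9, 35.6, 52.6, 53.9 and 57.1 CPM. All 6 CKD-vehicle mice lay above the sham-vehicle median, and 2 lay above its highest mouse. Its difference with Oxf averaged over surgery was -0.38 ± 0.15 log2 and did not pass (edgeR adjusted p = 0.128).

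The 4 pairwise comparisons and the interaction called 0 of 10 members by edgeR. Among all genes they called 0.00824% (CKD-vehicle against sham-vehicle), 0.033% (CKD-Oxf against CKD-vehicle) and 0% in the other 3. At an unadjusted p under 0.05, CKD-vehicle against sham-vehicle held 2 members (Dld, 0.56 ± 0.27, and Ppm1k, 0.45 ± 0.19), against 4.46% of all genes. CKD-Oxf against CKD-vehicle held 3 (Dld, -0.81 ± 0.29; Ppm1k, -0.47 ± 0.21; Acadsb, -0.52 ± 0.21), against 13.1%. Sham-Oxf against sham-vehicle held 3 (Klf15; Dld, -0.81 ± 0.30; Acadsb, -0.67 ± 0.22), against 12.6%. CKD-Oxf against sham-Oxf held 1 (Bckdhb), against 8.23%, and the interaction held 0, against 3.55%. DESeq2 called 0 members in these 5 comparisons, against 0.12%, 0.785%, 0.541%, 0.421% and 0% of all genes in the order given. For CKD-Oxf against CKD-vehicle limma voom called 3 lower (Dld, Ppm1k and Acadsb), where it called 8.47% of all genes lower. Without CKD-Oxf replicate 4, edgeR called 2 in that comparison (Dld, adjusted p = 0.0358, and Acadsb, adjusted p = 0.0468), in a fit that called 926 genes (3.82%) against 8 with all libraries.

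**Figure D2:**
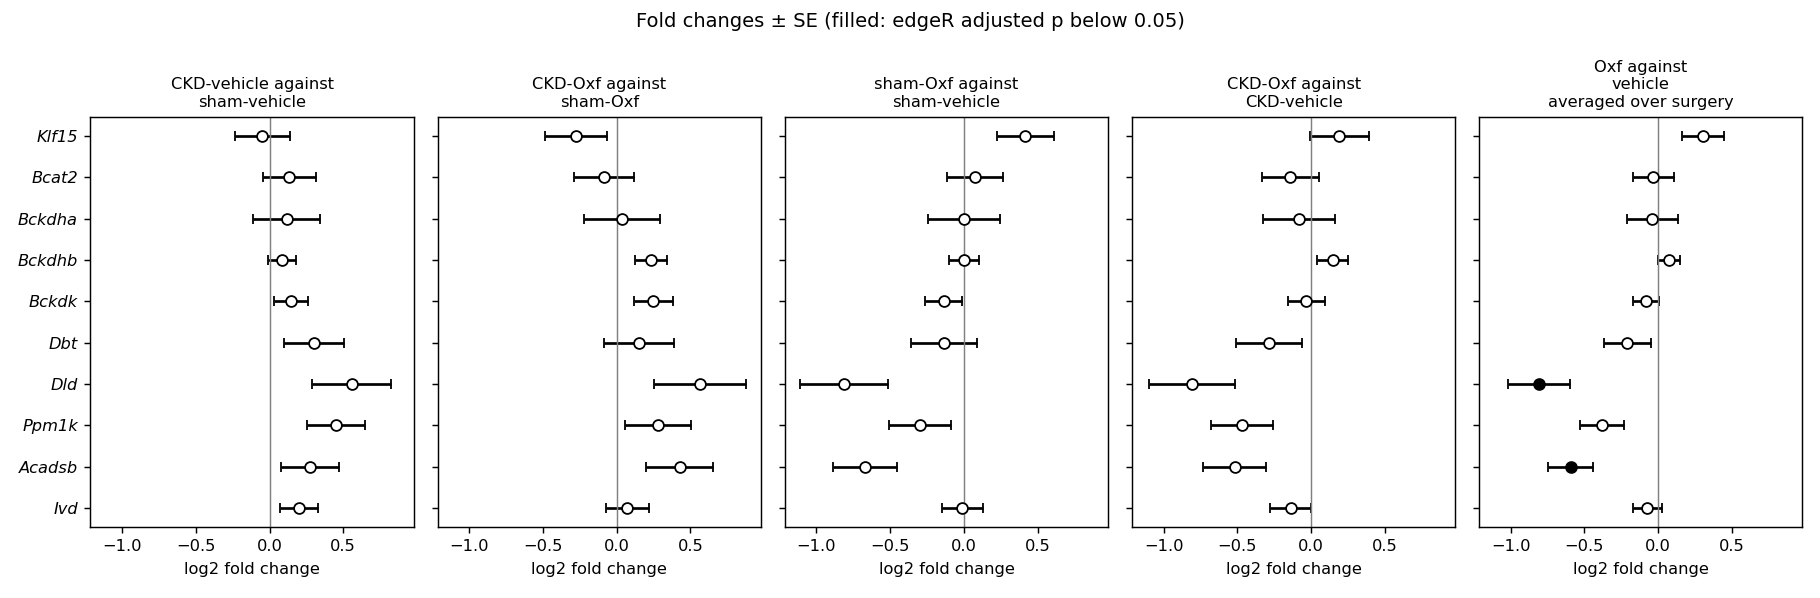
log2 fold changes (x axis) with SE for the 10 genes (y axis) in 5 comparisons. Filled points passed an edgeR adjusted p of 0.05, which only Dld (-0.81) and Acadsb (-0.59) did, in Oxf against vehicle averaged over surgery.

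The other 24 genes of branched-chain amino acid uptake and breakdown had a median of -0.18 log2 in Oxf against vehicle averaged over surgery. The median was -0.09 for the 9 member enzymes and 0.0031 for all genes tested. Of all genes, 2.81% were called in this comparison, 1.26% higher and 1.54% lower. The counts called in the short lists below were not tested against those shares. Of the 24, 2 were called, both lower: Hibch, the valine pathway's hydroxyisobutyryl-CoA hydrolase (-0.60 ± 0.15, edgeR adjusted p = 0.0351), and Hadhb, a subunit of the trifunctional protein of fatty acid oxidation (-0.77 ± 0.21, adjusted p = 0.0473). Of 17 Krüppel-like factor genes 14 were tested, and 1 was called, Klf13 (0.36 ± 0.09, edgeR adjusted p = 0.0305). Of 9 genes tied to Klf15 in heart or muscle, 2 were called. Prodh, which encodes proline dehydrogenase, was higher (0.54 ± 0.13, edgeR adjusted p = 0.0351), and Nppb, which encodes a natriuretic peptide, was lower (-1.67 ± 0.29, adjusted p = 0.00539). Kcnip2, a potassium channel subunit gene under Klf15 control, was not called.

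In the cardiomyocyte clock, CLOCK and BMAL1 (Arntl) drive Per genes and Dbp, whose peak is opposite to that of Arntl. A clock score was taken in each mouse as the mean of 9 output genes (Dbp, Tef, Hlf, Per1, Per2, Per3, Nr1d1, Nr1d2, Ciart) minus the mean of 5 genes listed as of opposite phase (Arntl, Npas2, Clock, Nfil3, Cry1), in log2 units around the sham-vehicle mean. Sham-vehicle mice ran from -1.48 to 1.76 and CKD-vehicle mice from -2.57 to -0.16. Sham-Oxf mice were at 0.77, 1.62, 1.77, 1.86 and 2.004, and CKD-Oxf mice ran from -0.08 to 1.61. CKD-vehicle had the lowest mean (-1.48 ± 1.04, SD) and sham-Oxf the highest (1.603 ± 0.49), with no overlap between them. In Oxf against vehicle averaged over surgery, 6 of the 9 output genes were called higher and 4 of the 5 genes listed as opposite lower by edgeR. Cry1, the other gene listed as opposite, was at 0.34 ± 0.17 log2 and did not pass (edgeR adjusted p = 0.224). Of all genes, 1.26% were called higher and 1.54% lower.

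Within groups, Klf15 rose with the clock score, and none of the 9 enzyme genes passed the same test. In a fit with 4 group means and the score, the slope of Klf15 was 0.31 ± 0.06 log2 per unit (SE, edgeR adjusted p = 0.0354). It was 1 member of 10 called, against 0.177% of all genes (43 genes, 35 of them higher). The slopes of 8 of 9 enzymes were below 0, from -0.24 (Dld) to -0.04 (Ivd), and Bckdhb stood at 0.05; the lowest unadjusted p was 0.0269, for Dbt (edgeR adjusted p = 0.395). The Klf15 slope stayed between 0.28 and 0.32 when each library was left out, but passed in 20 of 28 fits. It was lost without sham-vehicle replicates 1, 8, 9 or 10, CKD-vehicle 1 or 5, sham-Oxf 5 or CKD-Oxf 1 (adjusted p at most 0.123). With Dbp alone in place of the score the slope was 0.27, now per log2 unit of Dbp, and did not pass (edgeR adjusted p = 0.615). With the median over the clock lists in place of the mean it did not pass either.

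The same relation was examined group by group. Across the 10 sham-vehicle mice, Klf15 and the score had Pearson r = 0.769 (permutation p = 0.0101) and Spearman rho = 0.806 (permutation p = 0.00739), with r = 0.580 after leaving out the 2 mice farthest on the score. The 6 CKD-vehicle mice had r = 0.941 (exact permutation p = 0.0153) and rho = 0.886 (exact p = 0.0333), with r = 0.917 on leaving out the 2. Across the 7 CKD-Oxf mice r was 0.603 (exact permutation p = 0.137), rho 0.393 (exact p = 0.396) and r without the 2 farthest 0.565. All tests were two-sided. Adjusted over all genes tested in that group, the p of r was 0.932, 0.337 and 0.675 in these 3 groups, so no single group passed and 0% of all genes did. The permutation p has a floor set by the number of mice or draws, which limits the adjusted p of genes that reach it. Arntl, itself part of the score, had r = -0.981 in sham-vehicle, with a permutation p of 1e-05 and an adjusted p of 0.0809. The permutation p of Klf15 lay above the floor in each group, so the floor does not explain why Klf15 did not pass. With this few mice, not passing does not decide whether Klf15 follows the score within a group. At an unadjusted p under 0.05 the 3 groups held 4.25%, 13.5% and 10.3% of all genes. The 3 CKD-vehicle mice with scores below -2 had 24.0, 25.6 and 25.9 CPM of Klf15, and the other 3 had 35.5, 42.6 and 32.2 CPM.

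Klf15 was also set against mouse number, as the labels give it. The groups hold separate blocks of numbers (901 to 910 for sham-vehicle, 913 to 920 for CKD-vehicle, 921 to 929 for sham-Oxf, 931 to 940 for CKD-Oxf), so across groups the number and the condition cannot be told apart. Within sham-vehicle, Dbp had r = 0.940 with the number (permutation p = 0.00013, adjusted p = 0.485; rho = 0.939, permutation p = 0.00014; r = 0.964 without the 2 farthest). Klf15 had r = 0.672 (permutation p = 0.0342, adjusted p = 1.000; rho = 0.709, permutation p = 0.0264), and 0.409 without the 2 mice farthest on the number. Within CKD-vehicle Klf15 had r = 0.831 (exact permutation p = 0.0514, adjusted p = 0.687; rho = 0.829, exact p = 0.0583), and 0.636 without the 2. Within CKD-Oxf Klf15 had r = 0.397 (exact permutation p = 0.387, adjusted p = 0.988; rho = 0.25, exact p = 0.595), which became -0.481 without the 2, and Dbp had r = 0.0549 (exact permutation p = 0.904). Adjusted over all genes, none of these relations passed, and each permutation p lay above its floor. What the number marks is not given in the sources used here.

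**Figure D3:**
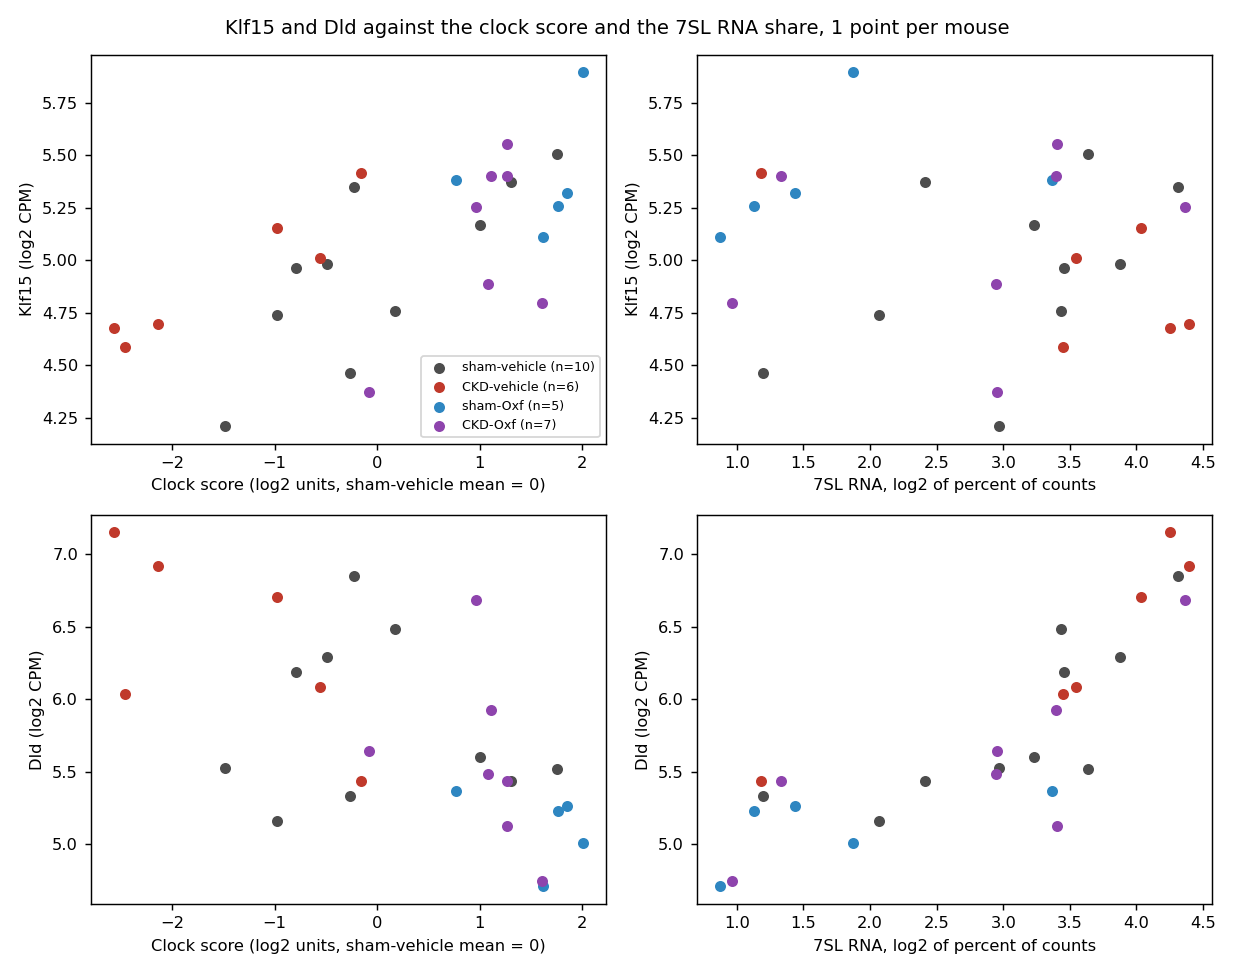
log2 CPM of Klf15 (top) and Dld (bottom) against the clock score (left, log2 units) and the 7SL RNA share (right, log2 of percent), 1 point per mouse, coloured by group. Klf15 climbs with the clock score and Dld with the 7SL share.

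With the clock score as a covariate, the Klf15 difference between CKD-vehicle and sham-vehicle became 0.41 ± 0.17 and that between CKD-Oxf and CKD-vehicle became -0.57 ± 0.22. That between sham-Oxf and sham-vehicle became -0.05 ± 0.18 and the Oxf average became -0.31. None passed, and each had the opposite sign to the fit without the score. The same covariate moved Dld to -0.30 (edgeR adjusted p = 0.886) and Acadsb to -0.28 (adjusted p = 0.856) in the Oxf average. That fit called 0% of all genes in the Oxf average, against 2.81% without the score.

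The genes whose variation within groups was most like that of Klf15 were sought among 13903 genes, as Pearson r of log2 CPM minus the group mean over 28 mice. These r describe libraries that share depth and composition, and carry no test. The highest were Plekhf1 (0.868), the nocturnin gene Noct (0.867), the sphingomyelin synthase gene Sgms1 (0.846), Lrrc10 (0.839) and the death receptor gene Fas (0.834). Among the lowest were Hspa12a (-0.766) and Cd276 (-0.703). The glucocorticoid-induced genes Zbtb16 (0.776, rank 19) and Tsc22d3 (0.768, rank 23), the clock gene Per1 (0.750, rank 32) and Per2 (0.729, rank 42) stood near the top, and Arntl (-0.697, rank 13900) near the bottom. Members of the same lists also stood far from the top, such as the clock output gene Nr1d1 (0.0730, rank 4544) and the glucocorticoid-induced Angptl4 (0.0471, rank 5291). Of 9 glucocorticoid-induced genes, 1 had a called slope on the clock score, Zbtb16 (0.69 ± 0.14, edgeR adjusted p = 0.0351), and 0 were called in the Oxf average (1 at an unadjusted p under 0.05). Of all genes, 0.177% had a called slope, and 2.81% were called in the Oxf average (23% at an unadjusted p under 0.05).

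Among the enzyme genes, Bckdhb (0.434, rank 422) and Ivd (0.308, rank 987) were the nearest, and the other 7 ran from -0.180 (Bckdk) to 0.104 (Bcat2). The 36 pairs of enzyme genes had r from 0.195 (Bcat2 with Bckdhb) to 0.927, with a median of 0.639. The highest was that of Bcat2 and Dbt, the transaminase and the transacylase core. Sham-Oxf replicate 1, the library that stood apart, was the highest of its group for both (49.4 CPM for Bcat2 and 22.4 for Dbt). The r without that library was not computed.

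**Figure D4:**
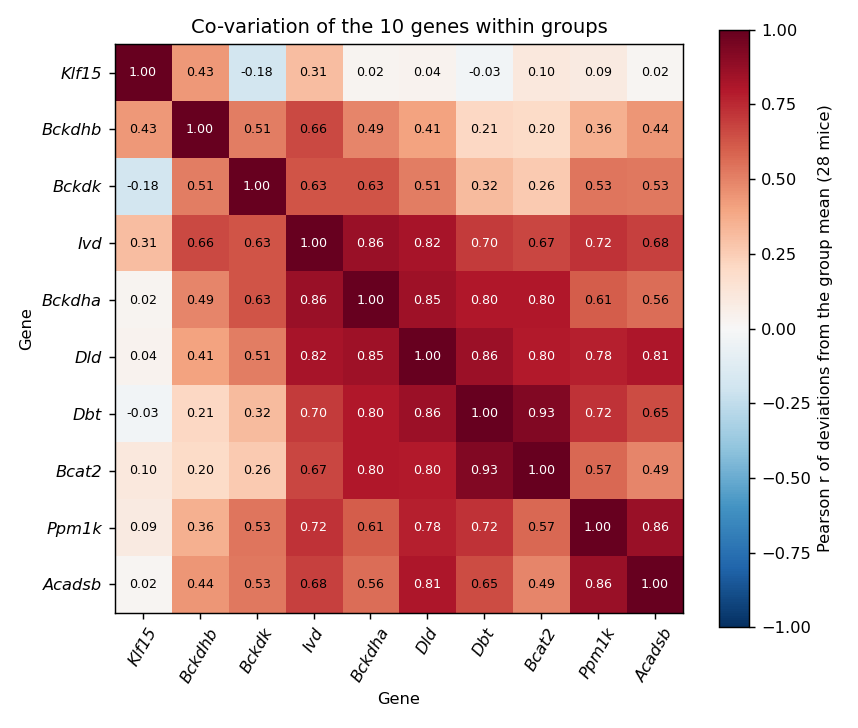
Pearson r between genes of log2 CPM minus the group mean over 28 mice (colour and number, from -1 to 1). Klf15 has r of 0.434 or less with every enzyme. The highest enzyme pairs are Bcat2 with Dbt (0.927) and Ppm1k with Acadsb (0.861).

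Most of the enzyme genes followed the share of 7SL RNA. This relation was added after the data were seen. In a fit with 4 group means, 7 of the 9 enzymes rose with each doubling of the share, against 16.7% of all genes called higher (37.7% in either direction). Slopes per doubling were 0.42 ± 0.06 log2 for Dld (SE, edgeR adjusted p = 2.53e-05), 0.28 ± 0.05 for Dbt, 0.26 ± 0.05 for Ppm1k, 0.25 ± 0.07 for Bckdha, 0.24 ± 0.05 for Bcat2, 0.22 ± 0.06 for Acadsb and 0.13 ± 0.04 for Ivd. Klf15 (0.04 ± 0.07, edgeR adjusted p = 0.668), Bckdhb (0.02 ± 0.04) and Bckdk (0.03 ± 0.04) did not pass. Ivd was lost without sham-vehicle replicate 5, CKD-vehicle 2 or CKD-Oxf 4, and Acadsb without CKD-Oxf 4.

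Of the other 24 pathway genes, 17 were called, 16 higher, such as Mcee (0.47 ± 0.07, edgeR adjusted p = 1.26e-05), Echs1 (0.40 ± 0.07, adjusted p = 6.69e-05) and Hadhb (0.38 ± 0.08, adjusted p = 0.000309). The mitochondrial carrier gene Slc25a44, which brings branched-chain amino acids into mitochondria, was the 1 called lower (-0.20 ± 0.04, edgeR adjusted p = 0.000711). In CKD-vehicle, Dld had r = 0.895 with the log2 share (exact permutation p = 0.00417, adjusted p = 0.0639; rho = 0.943, exact p = 0.0167; r = 0.992 without the 2 mice farthest). In sham-vehicle it had r = 0.778 (permutation p = 0.00750, adjusted p = 0.0742; rho = 0.818, permutation p = 0.00594; r = 0.768 without the 2). In CKD-Oxf it had r = 0.763 (exact permutation p = 0.0375, adjusted p = 0.337; rho = 0.643, exact p = 0.139; r = 0.786 without the 2). In the order CKD-vehicle, sham-vehicle and CKD-Oxf, 28.8%, 30.8% and 13.8% of all genes had an unadjusted p under 0.05 with the share. After adjustment 0%, 4.58% and 0% passed. The permutation p has a floor here as well, but genes passed in sham-vehicle despite it, and Dld lay above it in all 3 groups.

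**Figure D5:**
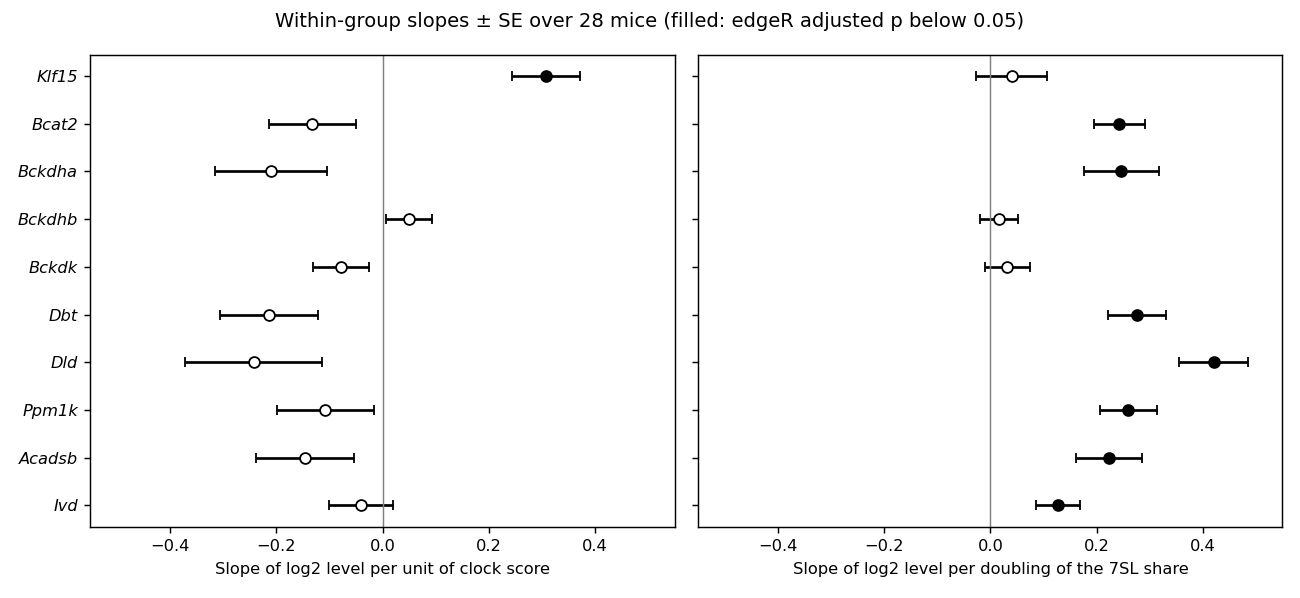
Within-group slopes of log2 level (x axis) with SE for the 10 genes (y axis), per unit of clock score (left) and per doubling of the 7SL share (right). Klf15 alone is filled on the left (0.31), and 7 enzymes are filled on the right (0.13 to 0.42), where Klf15 is open.

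The 7SL share ran from 1.95% to 20.6% in CKD-Oxf, from 2.26% to 20.98% in CKD-vehicle and from 2.30% to 19.9% in sham-vehicle. In sham-Oxf, replicate 1, the library that stood apart, was at 10.3%. The other sham-Oxf libraries were at 1.83%, 2.18%, 2.70% and 3.66%, near the low end of the other ranges. The difference in share between groups was not tested. With the log2 share as a covariate, the Oxf average was -0.34 for Dld (edgeR adjusted p = 0.254) and -0.34 for Acadsb (adjusted p = 0.236), and neither passed. Without the 3 libraries of highest share (CKD-vehicle replicate 3, CKD-Oxf 4 and sham-vehicle 5) it was -0.83 and -0.60, and both passed. Of all genes, 0.544% were called with the covariate and 5.66% without the 3 libraries, against 2.81% with neither change. The sums of 3 marker lists are given by group, with no test between groups. The 8 cardiomyocyte genes summed to 29800 to 44553 CPM in CKD-vehicle, 23110 to 39757 in CKD-Oxf, 17007 to 32418 in sham-vehicle and 19023 to 27585 in sham-Oxf. The 5 atrial markers summed to medians of 2144 CPM in CKD-vehicle, 1309 in sham-vehicle, 1237 in CKD-Oxf and 907 in sham-Oxf (62.8 to 2773 over all mice). The 4 fibroblast markers had medians of 256 CPM in CKD-Oxf, 257 in sham-Oxf, 368 in CKD-vehicle and 383 in sham-vehicle (182 to 587 over all mice). Every gene of the 3 lists had counts in every library. The part of these markers in the Dld and Acadsb values was not tested. In whole tissue, fewer cells of a type and less RNA per cell cannot be told apart.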

How the data were processed

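RNA of ventricular myocardium from 28 mice was sequenced. The authors deposited 1 table of raw counts per gene. Reads were processed with STAR 2.6.1d, featureCounts 1.6.3, FastQC 0.11.7 and MultiQC 1.9 on mm10, per the submitters' processing notes. Annotation and strand use are not given in the sources used here. Positions came from GENCODE M21, where 45465 of 45513 identifiers matched, and promoter windows from RefSeq.

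TMM-scaled counts were tested by edgeR 4.0.16 in R 4.3.3 (robust quasi-likelihood F test, filterByExpr with a minimum count of 10, 4 group means over 28 libraries). Adjusted p-values are Benjamini-Hochberg over 24273 genes, with a threshold of 0.05. SEs were derived from the fold change and its F statistic. The code was tested on simulated data. Log2 CPM used a prior count of 2. Correlation p-values are exact for 6 and 7 mice and from 100000 permutations for 10, and sham-Oxf (5 mice) had none.

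Alternatives were DESeq2 1.42.0, limma 3.58.1 voom, other scalings and filters, covariates and leaving out each library. The 7SL slope and the fit without the 3 libraries of highest 7SL share were added after seeing the data. Members and gene lists were chosen with earlier results of these data known. Fold changes are printed for Klf15 in every comparison, and for other members that passed or are set beside one that passed. The unadjusted members, Cry1, Nr1d1, Angptl4, and Mcee, Echs1 and Hadhb (slopes) were chosen after their values were seen. Genes like Klf15 are the 5 highest and 3 lowest r, of which 1 is not reported here.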

Additional observations from a re-analysis of the deposited data

Results flagged for a closer look

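Ppm1k in sham-Oxf replicate 2 lay apart from the other 4 mice of its group, at 35.6 CPM, the lowest of that group. The gap to the next mouse was 0.829 of the whole range of the group on the log2 CPM scale. This was 1 of 40 groups examined (10 genes in 4 groups), where chance gives about 1 in 20, or 2.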

How the results depend on the processing

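Results were set beside the same result under an alternative setting 876 times, and 790 of these were labelled the same. For a fold change, slope or correlation the label means the same direction and side of the threshold. For a count of members it means an equal or similar count, and for a group mean a shift below the SD. The cause was not tested for any change given here. With limma voom, members past the threshold were 3 in CKD-Oxf against CKD-vehicle and 4 in the Oxf average, where Klf15 passed (0.38). Of all genes, limma voom called 15% in the first comparison and 22% in the second. In the Oxf average, 0 members passed with no filter on low counts, or with the clock score or the 7SL share as covariate. In that order these fits called 0.366%, 0% and 0.544% of all genes, against 2.81% in the main fit. Klf15 reversed with the clock score as covariate to 0.41 (CKD-vehicle against sham-vehicle), -0.57 (CKD-Oxf against CKD-vehicle), -0.049 (sham-Oxf against sham-vehicle) and -0.31 (Oxf average). On the clock score, 0 members passed with Dbp (Klf15 0.27 per log2 unit of Dbp) or with the median over the lists (Klf15 0.29). These fits called 0.033% and 0.21% of all genes, against 0.177% in the main fit. The Klf15 slope on the 7SL share passed with the clock score added (0.12), in a fit that called 33% of all genes. With Dbp in place of the score, the Klf15 correlation in CKD-Oxf was -0.0995.

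When each library was left out, members past the threshold ranged from 0 to 2 in CKD-Oxf against CKD-vehicle, from 0 to 3 in the Oxf average and from 0 to 1 on the clock score. Klf15 ranged from -0.16 to 0.014 in CKD-vehicle against sham-vehicle (0.014 without CKD-vehicle replicate 1) and from 0.28 to 0.32 on the clock score. In the Oxf average Dld ranged from -0.95 to -0.73 and Acadsb from -0.69 to -0.55, while genes called ranged from 109 to 3362, the last without CKD-Oxf replicate 4. The median over all genes of the difference between group means of log2 CPM in the Oxf average moved from -0.11 (TMM) to 0.04 (total counts), and this is not the median of the edgeR fold changes (0.0031). No paired analysis was possible because the labels give each mouse its own number and the groups share none. The lowest count of a member in any library was 191, for Bckdhb in sham-Oxf replicate 1, the library of lowest depth. The effect of depth on the members was not tested.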
